A study of Mus musculus with 12 samples.

Results

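Bone marrow cells carrying CALM-AF10 ΔOM-LZ, a leukaemia fusion from which the part named OM-LZ was deleted, were compared with cells carrying the empty vector MIG. Each group had 3 arrays, so 6 of the 12 arrays of the study entered the comparison, and the members were all 21789 probe sets with exactly 1 gene symbol among the 35556 on the array. These probe sets stood for 19938 genes. The study set 3 fusion constructs against MIG, which its design names as the control and baseline. The remaining 6 arrays carried full CALM-AF10 and a fusion of CALM residues 400-648 with AF10 residues 677-758, called the minimal fusion here. They entered the fit to estimate the spread and gave the level of the HOXA genes where a fusion keeps OM-LZ.

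Every group came from adult mice labelled C57/BL6/C3H that had received 5-fluorouracil, a drug that kills dividing cells and so leaves marrow richer in stem and progenitor cells, 4 days before the marrow was taken. The marrow was kept in stimulating culture for 48 h and then laid over retrovirus-producing GFP+E86 cells that had been irradiated with 40 Gy, with cytokines and protamine sulfate present. After a further 48 h in medium with cytokines the GFP-positive cells were sorted, and total RNA was taken 96 h after transduction. MIG cells therefore also received virus, the producer line, the cytokines and the sort. The replicates are labelled biological, but the labels do not say which animals or days a replicate number shares, so p-values measure only the spread between these samples. The cells were a sorted mixture of marrow progenitors and their progeny. In such bulk RNA, fewer cells of a type and less RNA per cell cannot be told apart.

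CALM, encoded by Picalm in the mouse, is a clathrin assembly protein, and AF10, encoded by Mllt10, is a chromatin protein found in leukaemia fusions. The octapeptide motif and leucine zipper of AF10, abbreviated OM-LZ, bind DOT1L, the enzyme that methylates a lysine in the core of histone H3 at transcribed genes. Leukaemias with CALM-AF10 are known for high expression of HOXA genes, which encode homeobox transcription factors that are active in early blood progenitors and are shut down as cells mature. The comparison asks what the fusion does to transcript levels once the DOT1L-binding part is gone.

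No probe set with a gene symbol passed the test between CALM-AF10 ΔOM-LZ and MIG. With limma's moderated test and Benjamini-Hochberg adjustment over 23410 probe sets, 0 were called at an adjusted p under 0.05 (0%), and the smallest adjusted p was 0.234. A trended and robust variance estimate in limma also called 0. At an unadjusted p under 0.05 there were 927 probe sets (3.96%), of which 372 (1.59%) stood higher with ΔOM-LZ and 555 (2.37%) lower. The arrays of both groups did not overlap at 1881 probe sets (8.04%), 835 higher (3.57%) and 1046 lower (4.47%). The direction and size given for each gene from here on therefore describe these 6 arrays, and none of them is a called change.

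The fitted intervals were narrow for most probe sets. Without a detection call, how many of them read an expressed gene is not known, and elsewhere a narrow interval does not bound the gene. The median standard error (SE) of a log2 difference was 0.143, and for 21592 probe sets (92.2%) the 95% interval lay inside a 2-fold difference in either direction. Differences centred on 0.008 on the log2 scale, and their 5th and 95th percentiles were -0.364 and 0.264. A fitted difference of more than 2-fold was seen at 13 probe sets with ΔOM-LZ higher and at 32 with ΔOM-LZ lower. Array correlations over the same probe sets ran from 0.9825 to 0.9871 within MIG, from 0.977 to 0.9858 within ΔOM-LZ, and from 0.9705 to 0.9922 between the groups. These ranges overlapped.

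**Figure D1:**
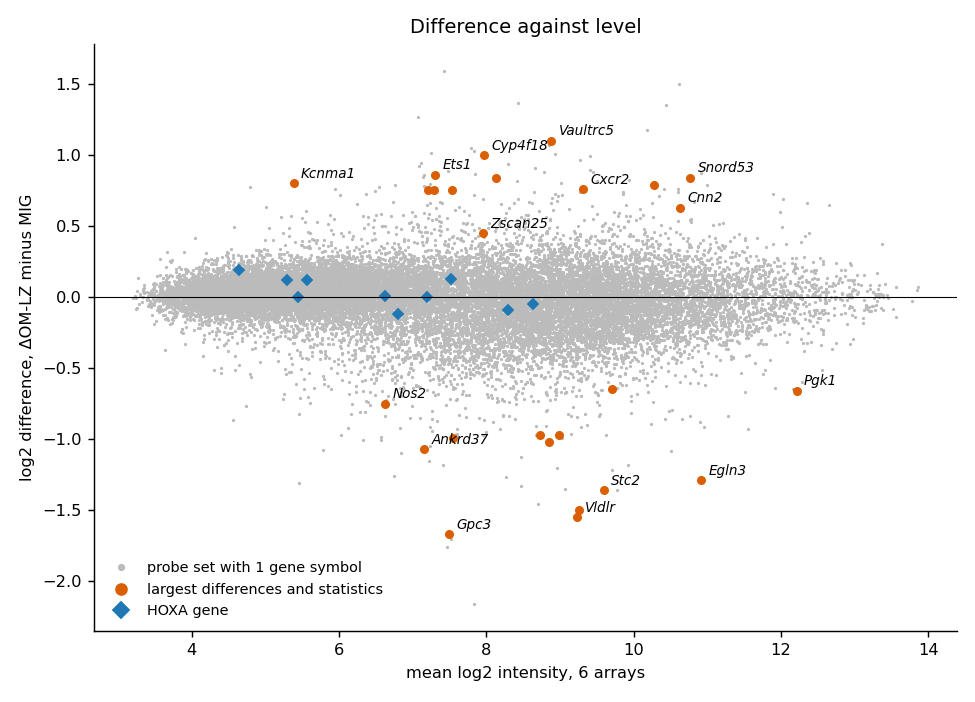
Each point is a probe set with 1 gene symbol, plotted as the log2 difference of CALM-AF10 ΔOM-LZ minus MIG (vertical axis) against its mean log2 intensity over the 6 arrays (horizontal axis). Blue diamonds are the 10 measured HOXA genes, all near 0, and orange points are the genes with the largest differences or statistics, from Gpc3 at -1.67 to Vaultrc5 at 1.10.

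HOXA transcripts with ΔOM-LZ lay close to those of the empty vector, with differences from -0.12 to 0.19 on the log2 scale. The values of 10 HOXA genes are given. The fitted difference was above 0 for 6 and below 0 for 4, beside 52.3% above and 47.7% below over all tested probe sets, and their median was 0.008 against 0.008 over all probe sets. Quantile normalization turned this split to 4 above and 6 below with a median of -0.02, and median centring gave 5 of each. None of the 10 had an unadjusted p under 0.05 and the groups overlapped at every one. Over all tested probe sets 3.96% had such a p and 8.04% did not overlap, so a list this short would often hold none. The same holds where none is given for the lists below. The 95% intervals of all 10 lay between -0.66 (Hoxa7) and 0.52 (Hoxa11), inside a 2-fold difference either way.

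Hoxa9, the HOXA gene best known for driving self-renewal of myeloid leukaemia cells, measured 8.74, 8.44 and 8.81 log2 units on the MIG arrays and 8.64, 8.57 and 8.63 on the ΔOM-LZ arrays. The ΔOM-LZ values lay inside the range of MIG, with a difference of -0.05 (SE 0.11, interval -0.29 to 0.18). Full CALM-AF10 gave 9.03, 8.94 and 8.95, and the minimal fusion 9.94, 10.09 and 10.13, so both fusions with OM-LZ lay above all 6 arrays of MIG and ΔOM-LZ. The minimal fusion exceeded ΔOM-LZ by 1.44 (SE 0.11, adjusted p 0.000886 in limma). CALM-AF10 exceeded ΔOM-LZ by 0.36 (interval 0.13 to 0.59, adjusted p 1 in limma).

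Hoxa6 gave 7.35, 7.04 and 7.18 with MIG and 7.25, 6.94 and 7.37 with ΔOM-LZ, a difference of 0.00 (SE 0.16). With the minimal fusion it rose over ΔOM-LZ by 1.61 (adjusted p 0.0111 in limma), a call that was lost without ΔOM-LZ replicate 1 (adjusted p 0.0719) or 2 (0.0668) or minimal fusion replicate 2 (0.0796) or 3 (0.0769). Hoxa10, which acts with Hoxa9 in progenitor growth, gave 6.62, 6.85 and 7.12 with MIG and 6.87, 6.72 and 6.65 with ΔOM-LZ, a difference of -0.12 (SE 0.15). Its excess with the minimal fusion over ΔOM-LZ was 1.30 (adjusted p 0.0282), and this call was lost under median centring (0.0561), with a replicate block (0.106), and without any 1 of 9 arrays, all ΔOM-LZ and minimal fusion arrays among them (0.0505 to 0.223).

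Hoxa7 varied most among the ΔOM-LZ arrays. It measured 8.38, 8.38 and 8.26 with MIG and 8.43, 7.63 and 8.70 with ΔOM-LZ, so ΔOM-LZ replicate 2 lay below and replicate 3 above the whole MIG range. Hoxa5 gave 6.59, 6.68 and 6.57 against 6.63, 6.36 and 6.89, with overlapping groups and a difference of 0.01 (SE 0.20). Hoxa3 and Hoxa4 differed by 0.12 (SE 0.16) and 0.13 (SE 0.17). Hoxa2, Hoxa11 and Hoxa13 differed by 0.00 (SE 0.11), 0.19 (SE 0.15) and 0.12 (SE 0.12). The MIG means of Hoxa2, Hoxa3, Hoxa11 and Hoxa13 were 5.44, 5.50, 4.55 and 5.23, below the array medians of 6.581 to 6.686. Without a detection call, whether these genes were expressed is not known.

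The test of the fusions with OM-LZ against ΔOM-LZ itself called 4 of 23410 probe sets (0.0171%) for the minimal fusion, with 960 at an unadjusted p under 0.05 and 8 calls with a trended and robust variance. These were Hoxa6, Hoxa9, Hoxa10 and the dimmer of 2 probe sets of Mecom, a stem cell transcription factor, at 1.23 (adjusted p 0.0473 in limma). The brighter Mecom probe set gave 2.08 and did not pass (adjusted p 0.32). For full CALM-AF10 minus ΔOM-LZ the same test called 0 (0%), with 528 probe sets at an unadjusted p under 0.05 and 0 calls with a trended and robust variance. Replicate numbers did pair these constructs in the data, since arrays with the same number deviated together from their groups (correlations of 0.70 to 0.73). With the replicate number as a block in these 6 arrays, an alternative chosen after the data were seen that left 2 residual degrees of freedom, 1 probe set was called. At an unadjusted p under 0.05 that blocked fit held 2305 of the 23410 probe sets higher and 1025 lower with CALM-AF10. The called probe set was Prss34, a basophil protease, at -1.66 (adjusted p 0.031 in limma), and it stood higher with ΔOM-LZ. In the same fit the HOXA members still did not pass. Intervals lay above 0 for Hoxa9 (0.36, interval 0.19 to 0.53, adjusted p 0.231 in limma) and Hoxa6 (0.52, interval 0.32 to 0.73, 0.229). They also did for Hoxa7 (0.62, interval 0.39 to 0.86, 0.229) and Hoxa3 (0.24, interval 0.01 to 0.46, 0.331). The intervals of the other HOXA members included 0.

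**Figure D2:**
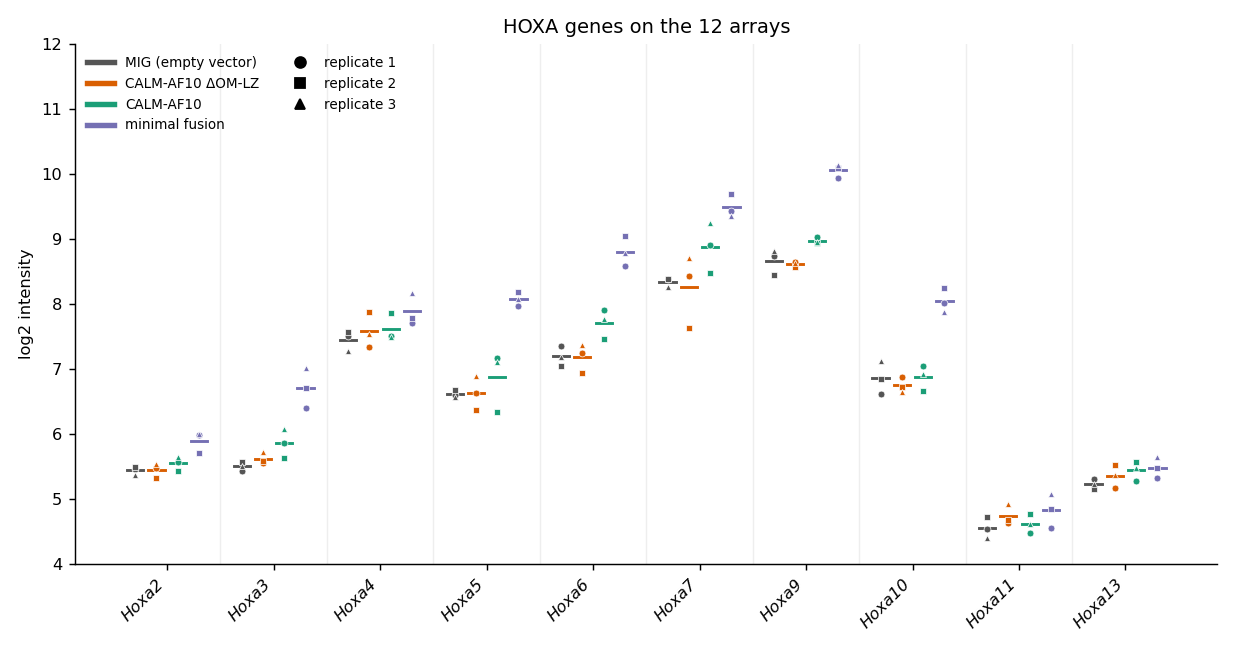
Log2 intensity of the 10 measured HOXA genes on all 12 arrays, by construct, with a symbol per replicate and a line at each group mean. MIG and CALM-AF10 ΔOM-LZ overlap at every gene, and for Hoxa9 the minimal fusion lies at 9.94 to 10.13 against 8.57 to 8.64 for ΔOM-LZ.

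Genes of the other HOX clusters also stood near the empty vector, at low signal. Their mean level was 5.71 to 5.79 log2 units with MIG and 5.71 to 5.87 with ΔOM-LZ, below the array medians of 6.581 to 6.686. The values carry no detection call, so whether most of these genes were expressed is not known. Of 18 measured, 12 stood higher and 6 lower, the median was 0.026 (-0.04 with 5 higher without ΔOM-LZ replicate 2), and none had an unadjusted p under 0.05. Hoxb4, used to expand blood stem cells in culture, differed by 0.13 (SE 0.13). Hoxc9 and Hoxc8, homeobox genes of the HOXC cluster, differed by 0.13 (SE 0.12) and -0.09 (SE 0.13).

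The cofactors that bind DNA together with HOX proteins leaned lower, without a called change. Of 8 measured, 2 stood higher and 6 lower with a median of -0.219 (-0.09 without MIG replicate 3), and none had an unadjusted p under 0.05. Their list score, the mean log2 deviation of the genes from their mean over the 12 arrays, was -0.02, 0.06 and 0.25 with MIG and -0.03, -0.12 and -0.05 with ΔOM-LZ. Meis1, the HOXA9 partner in leukaemia, measured 10.03, 10.13 and 11.03 with MIG and 10.58, 9.21 and 9.81 with ΔOM-LZ. MIG replicate 3 was the highest and ΔOM-LZ replicate 2 the lowest array, the groups overlapped, and the difference was -0.53 (SE 0.41). Pbx3, another cofactor co-expressed with HOXA genes in leukaemia, differed by -0.24 (SE 0.19), Pbx2 by -0.23 (SE 0.12), Meis2 by -0.23 (SE 0.13) and Pknox1 by -0.21 (SE 0.14). Pbx4 gave -0.11 (SE 0.14), Meis3 0.12 (SE 0.10) and Pknox2 0.12 (SE 0.33).

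Genes of the DOT1L and AF10 machinery were expressed in both groups at similar levels. Dot1l measured 10.06, 9.98 and 9.81 with MIG and 9.95, 10.47 and 10.15 with ΔOM-LZ, with overlapping groups and a difference of 0.24 (SE 0.13). Mllt10 itself measured 10.33, 10.48 and 10.64 against 10.27, 10.35 and 10.44, a difference of -0.13 (SE 0.12). The labels do not say whether the mouse Mllt10 probes also read the transduced fusion. No probe set carried the symbol Picalm.

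Over all 18 members of that list, 7 stood higher and 11 lower, and the median was -0.075. An unadjusted p under 0.05 was held by 1 member, on the lower side (background 2.37%). That member was Psip1, which tethers MLL to chromatin, at 8.71, 8.42 and 8.90 with MIG and 8.50, 8.12 and 8.41 with ΔOM-LZ. The groups overlapped and the difference was -0.33 (SE 0.15, unadjusted p 0.0455, adjusted p 0.999 in limma). Mllt3, which links DOT1L to elongation complexes, gave the largest difference of the list, -0.61 (SE 0.39), with MIG replicate 3 at 9.85 and the other 5 arrays at 7.98 to 8.84. Kmt2a, which encodes the histone methyltransferase MLL, differed by 0.07 (SE 0.09), and Men1, which encodes its cofactor menin, by 0.05 (SE 0.19). Mllt6, a relative of Mllt10, differed by 0.01 (SE 0.13). Of the elongation factors, Mllt1 differed by 0.13 (SE 0.09), Aff1 by -0.01 (SE 0.16) and Aff4 by -0.27 (SE 0.22). The other Aff1 probe set gave -0.26 (SE 0.26). The kinase Cdk9 and its cyclins Ccnt1 and Ccnt2 differed by 0.05 (SE 0.10), -0.03 (SE 0.17) and -0.19 (SE 0.12). The PAF1 complex members Paf1, Ctr9, Cdc73, Rtf1 and Leo1 gave 0.21, -0.14, -0.17, -0.12 and -0.18 with SEs of 0.13 to 0.21.

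Bmi1, a polycomb gene near Mllt10 on chromosome 2, measured 7.91, 8.15 and 7.87 with MIG and 8.07, 7.67 and 8.18 with ΔOM-LZ, a difference of 0.00 (SE 0.21). The 9 listed genes of that neighbourhood had a median of -0.017, with 3 higher and 6 lower. Among the polycomb genes, Ezh2 and Suz12, core parts of the complex that places a silencing methyl mark on histone H3, stood lower in groups that did not overlap, by -0.29 (SE 0.11) and -0.35 (SE 0.11). Ring1, of the complex that ubiquitylates histone H2A, stood higher at 8.01, 8.08 and 8.01 against 7.83, 7.79 and 7.82, a difference of 0.22 (SE 0.08). These 3 were the members with an unadjusted p under 0.05 among the 15 measured (background 3.96%), and the adjusted p of each was 0.999 in limma. The groups did not overlap at 1 member on the higher side and 3 on the lower (background 3.57% and 4.47%). The median of the 15 was -0.061 (0.04 without MIG replicate 3, 0.01 without ΔOM-LZ replicate 2).

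Self-renewal and stem cell genes leaned lower, and those named here had their lowest value on ΔOM-LZ replicate 2. Of 12 leukaemia self-renewal factors measured, 2 stood higher and 10 lower, with a median of -0.108 and none at an unadjusted p under 0.05. Without ΔOM-LZ replicate 2 they split evenly, 6 and 6 (median -0.05), and without MIG replicate 3 the median was -0.06. Mecom gave 6.67, 6.68 and 7.86 with MIG and 6.93, 6.01 and 6.45 with ΔOM-LZ, so the groups overlapped and MIG replicate 3 stood apart. Its difference was -0.61 (SE 0.38), while the dimmer Mecom probe set gave -0.19 (SE 0.16). Eya1, a developmental transcription cofactor, differed by -0.58 (SE 0.42). Of 17 stem and progenitor markers measured, 6 stood higher and 11 lower with a median of -0.119 (-0.22 without ΔOM-LZ replicate 1). Cd34, a surface marker of progenitors, measured 11.93, 11.73 and 12.43 against 11.86, 10.84 and 11.76, a difference of -0.54 (SE 0.29), and Kit, the stem cell factor receptor, differed by -0.12 (SE 0.34). Kit lay between 9.90 and 11.21 and Cd34 between 10.84 and 12.43 on the 6 arrays, so both progenitor markers were read on every array.

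Genes that cells raise when oxygen is short made up the group that stood furthest from 0. When oxygen falls, hypoxia-inducible factors are stabilised and bind a short core sequence, A or G followed by CGTG, near genes for glucose use, vessel growth and oxygen sensing. All 12 listed members were measured. With ΔOM-LZ 1 stood higher and 11 lower, the median difference was -0.646 against 0.008 over all probe sets, 8 had an unadjusted p under 0.05 (all lower, background 2.37%), and 5 did not overlap (background 4.47%). None passed the adjusted test.

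The bases before the start of 3 such genes are shown because these genes stood lower together and their windows hold that core. Each is the 250 bases before the RefSeq start on the strand of the gene (build GRCm38.p6), and capitals mark ACGTG and GCGTG on either strand, which read CACGT and CACGC when on the other strand.
Ankrd37, chr8:45999851-46000100, minus strand: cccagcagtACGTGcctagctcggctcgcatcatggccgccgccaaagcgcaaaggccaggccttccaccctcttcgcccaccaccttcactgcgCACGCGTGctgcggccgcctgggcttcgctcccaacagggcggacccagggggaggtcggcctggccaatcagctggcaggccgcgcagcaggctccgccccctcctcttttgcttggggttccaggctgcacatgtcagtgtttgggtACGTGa
Egln3, chr12:54203875-54204124, minus strand: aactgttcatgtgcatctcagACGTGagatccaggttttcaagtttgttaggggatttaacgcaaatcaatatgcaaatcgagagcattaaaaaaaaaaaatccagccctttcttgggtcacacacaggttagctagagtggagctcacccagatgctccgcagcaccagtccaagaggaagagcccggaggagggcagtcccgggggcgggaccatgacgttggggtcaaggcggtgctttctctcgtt
Pgk1, chrX:106186850-106187099, plus strand: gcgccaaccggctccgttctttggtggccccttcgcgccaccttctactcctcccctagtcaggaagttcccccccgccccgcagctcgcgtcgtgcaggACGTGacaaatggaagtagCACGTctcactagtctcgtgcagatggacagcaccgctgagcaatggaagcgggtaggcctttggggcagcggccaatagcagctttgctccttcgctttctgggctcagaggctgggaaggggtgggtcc
Neighbouring matches can share letters, as in the middle of the Ankrd37 window. ACGTG or its reverse complement was present in 16.6% of the 32851 RefSeq windows of this length, GCGTG or its reverse complement in 28.2%, and either in 38.6%. Of the 12 low-oxygen genes 11 had a window, and all 11 held at least 1 match. A gene was counted if any of its windows held a match, while the shares above count single windows. The list was picked for genes raised when oxygen is short, so a high share could be foreseen. A match describes the letters and is not evidence that a factor binds.

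Ankrd37, whose product carries ankyrin repeats and which responds to low oxygen, had the lowest moderated statistic of all genes with 1 symbol. It measured 7.77, 7.44 and 7.86 with MIG and 6.59, 6.82 and 6.47 with ΔOM-LZ. Every ΔOM-LZ array lay below every MIG array, with a difference of -1.07, or 2.10-fold lower (SE 0.14, interval -1.37 to -0.76, adjusted p 0.234 in limma). Egln3, a prolyl hydroxylase that marks hypoxia-inducible factors for destruction, measured 11.95, 10.81 and 11.92 against 9.85, 10.74 and 10.24. The groups were split by only a small gap between MIG replicate 2 and ΔOM-LZ replicate 2, and the difference was -1.29 (SE 0.36, adjusted p 0.999).

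P4ha1, a collagen prolyl hydroxylase, measured 10.98, 10.35 and 11.23 with MIG and 10.24, 9.95 and 9.80 with ΔOM-LZ, a difference of -0.86 (SE 0.20) without overlap. Bnip3, a mitophagy receptor, measured 11.57, 10.12 and 11.46 against 10.33, 10.05 and 9.52 and overlapped through MIG replicate 2, with a difference of -1.09 (SE 0.35). Ddit4, an inhibitor of growth signalling, differed by -0.67 (SE 0.21) and the stress gene Ndrg1 by -0.83 (SE 0.36), both without overlap. Vegfa, the vessel growth factor, differed by -0.60 (SE 0.27) and the histone demethylase Kdm3a by -0.60 (SE 0.21), both with overlap. Car9, a carbonic anhydrase much used as a marker of low oxygen, differed by -0.27 (SE 0.28), and Higd1a was the member that stood higher, by 0.08 (SE 0.18), while its other probe set gave -0.08 (SE 0.17).

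The MIG arrays differed widely among themselves. The list score was 0.55, 0.05 and 0.94 with MIG and -0.08, -0.21 and -0.19 with ΔOM-LZ. MIG replicate 2 was thus close to the ΔOM-LZ arrays and MIG replicate 3 was highest. Without MIG replicate 3 the median difference was -0.45 with 5 members at an unadjusted p under 0.05. Without MIG replicate 2 it was -0.91 with 9 such members, of which Ankrd37 passed the adjusted test (adjusted p 0.0363 in limma). Without ΔOM-LZ replicate 2 it was -0.56 with 5 such members. MIG replicate 3 also carried the highest mast cell score of the 6 arrays, 1.66, and the highest interferon score, 0.50, and their part in the result was not tested.

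The other fusions gave similar values against the same MIG arrays, so the comparisons share their controls and are not separate evidence. The list median was -0.694 for CALM-AF10 minus MIG and -0.852 for the minimal fusion minus MIG, beside -0.646 for ΔOM-LZ. Their scores ran from -0.13 to -0.01 over the CALM-AF10 arrays and from -0.37 to -0.25 over the minimal fusion arrays. Set directly against ΔOM-LZ, the medians were 0.104 for CALM-AF10 and -0.106 for the minimal fusion.

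Glucose transporters, glycolytic enzymes and lactate exporters, many of them also targets of hypoxia-inducible factors, leaned the same way. Of 14 measured, 1 stood higher and 13 lower, the median was -0.418, 5 had an unadjusted p under 0.05 (all lower, background 2.37%) and 3 did not overlap (all lower, background 4.47%). CALM-AF10 and the minimal fusion had medians of -0.417 and -0.354 against the same MIG arrays. Pgk1, a glycolytic kinase encoded on the X chromosome, measured 12.66, 12.28 and 12.69 with MIG and 11.99, 11.93 and 11.74 with ΔOM-LZ, a difference of -0.66 (SE 0.15, adjusted p 0.999 in limma) without overlap. Pgk1 has 3 probe sets with nearly the same values, so near-identical copies may share their signal, and the other probe sets gave -0.66 and -0.65. Slc16a3, which exports lactate, measured 11.11, 10.17 and 10.79 against 10.12, 10.04 and 9.23, a difference of -0.89 (SE 0.33) without overlap.

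Pdk1, a pyruvate dehydrogenase kinase, differed by -0.83 (SE 0.23). The glucose transporters Slc2a1 and Slc2a3 differed by -0.46 (SE 0.20) and -0.84 (SE 0.44), and Aldoa, an aldolase, by -0.30 (SE 0.11). Ldha, which makes lactate, differed by -0.19 (SE 0.13), and Hk1, a hexokinase, by 0.00 (SE 0.11). The other Hk1 probe set gave -0.20 (SE 0.14). The list score was 0.55, -0.03 and 0.52 with MIG and 0.02, 0.01 and -0.34 with ΔOM-LZ, so MIG replicate 2 again lay with the ΔOM-LZ arrays. The members at an unadjusted p under 0.05 numbered 2 without MIG replicate 1, without MIG replicate 3 or without ΔOM-LZ replicate 3. They numbered 9 without MIG replicate 2, of which Pdk1 passed the adjusted test (-1.18, adjusted p 0.0318 in limma).

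**Figure D3:**
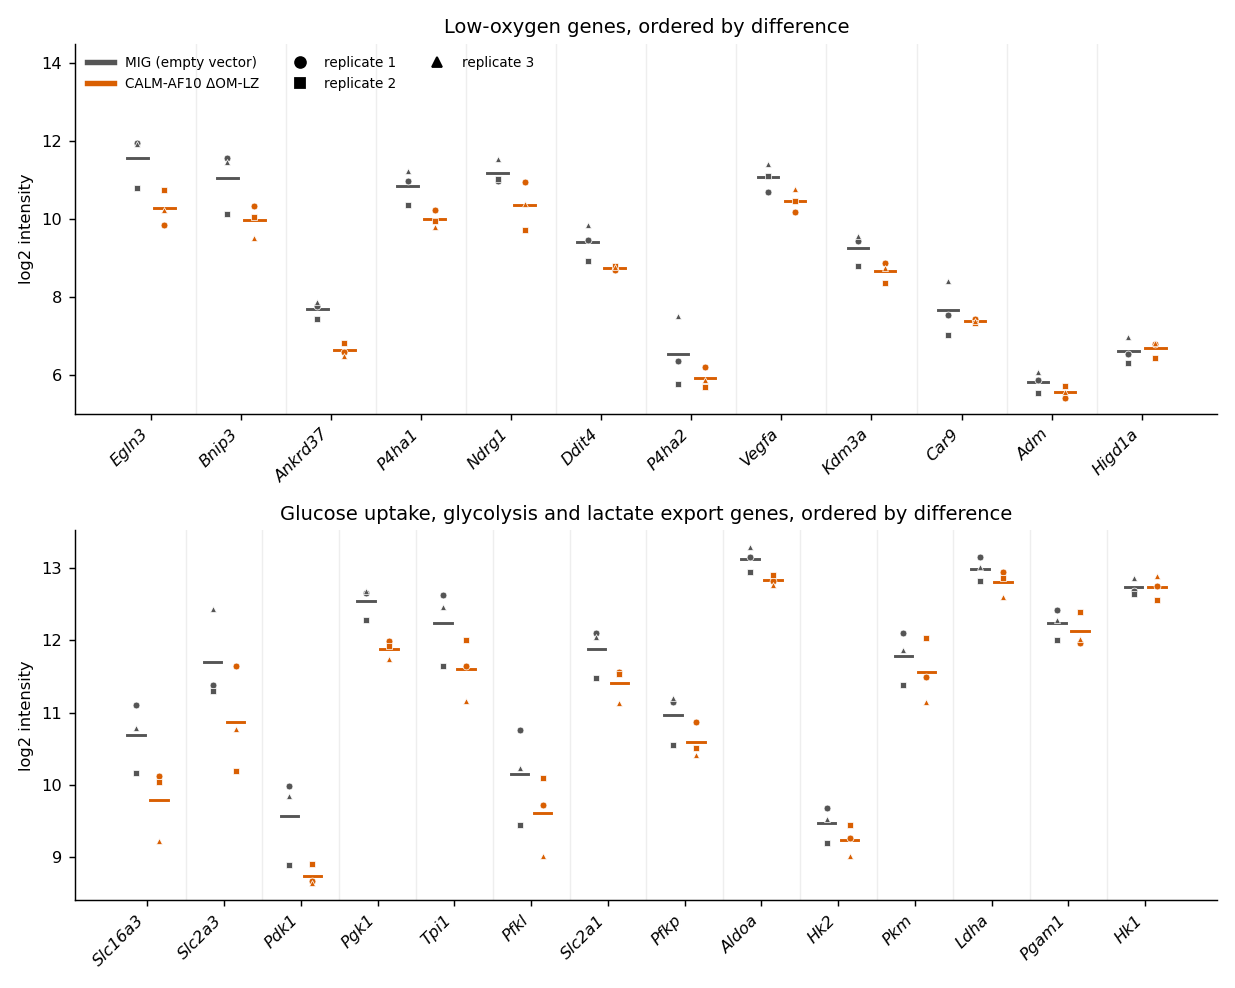
Log2 intensity of the low-oxygen genes (top) and of the glucose and lactate genes (bottom) on the 3 MIG and 3 CALM-AF10 ΔOM-LZ arrays, ordered by difference, with a symbol per replicate and a line at each group mean. Most ΔOM-LZ means lie lower, by up to 1.29 log2 units at Egln3, and MIG replicate 2 (squares) often lies near the ΔOM-LZ arrays.

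Beyond that group, Gpc3 had the largest difference among the non-overlapping genes of at least median level. Gpc3, a heparan sulfate proteoglycan of the cell surface, measured 8.26, 7.94 and 8.77 with MIG and 6.71, 6.22 and 7.04 with ΔOM-LZ. The groups lay well apart, and the difference was -1.67, or 3.17-fold lower (SE 0.25, interval -2.21 to -1.12, adjusted p 0.266 in limma). Leaving out 1 array at a time kept it between -1.86 and -1.44. Gpc3 was also lower than on the same MIG arrays with CALM-AF10, by -1.24, and with the minimal fusion, by -0.70.

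Several other low genes shared a low value on ΔOM-LZ replicate 2. Vldlr, a lipoprotein receptor, measured 9.91, 9.80 and 10.32 with MIG and 8.77, 7.57 and 9.05 with ΔOM-LZ, a difference of -1.55 (SE 0.45). Cth, which makes cysteine from cystathionine, measured 9.97, 10.13 and 9.93 against 8.44, 7.29 and 9.79, a difference of -1.50 (SE 0.65). Stc2, a secreted stanniocalcin, measured 10.26, 10.15 and 10.41 against 9.17, 8.02 and 9.57, a difference of -1.36 (SE 0.39). In each of these 3 genes ΔOM-LZ replicate 2 was the lowest array, and without it the differences were -1.10, -0.89 and -0.91. Arrdc4, Zc3h6, Arfgef3 and Clec2i followed at -1.02, -0.99, -0.97 and -0.97, again with their lowest value on that array, and the second Zc3h6 probe set gave -0.83. Against the same MIG arrays, CALM-AF10 and the minimal fusion gave -1.03 and -1.16 for Vldlr. They gave -1.10 and -1.61 for Cth, and -0.93 and -1.31 for Stc2.

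A pair of further genes was low with small spread. Nos2, the inducible nitric oxide synthase of activated myeloid cells, measured 7.26, 6.91 and 6.84 with MIG and 6.05, 6.48 and 6.23 with ΔOM-LZ, a difference of -0.75 (SE 0.16). Uchl3, a ubiquitin hydrolase, measured 10.06, 9.87 and 10.16 against 9.52, 9.25 and 9.37, a difference of -0.65 (SE 0.14). Neither group pair overlapped, and both adjusted p values were 0.999 in limma. Against the same MIG arrays, CALM-AF10 and the minimal fusion gave -0.76 and -0.93 for Nos2, and -0.39 and -0.30 for Uchl3.

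On the higher side, Kcnma1 had the highest statistic. Kcnma1, the pore of a calcium-activated potassium channel, measured 4.97, 4.96 and 5.02 with MIG and 5.93, 5.74 and 5.69 with ΔOM-LZ, a difference of 0.80 (SE 0.11, interval 0.55 to 1.05, adjusted p 0.234 in limma). Its other probe set gave 0.01. Both probe sets of Kcnma1 lay below the array medians of 6.581 to 6.686 on every array of MIG and ΔOM-LZ. Without a detection call, whether the gene was expressed is not known. Zscan25, a zinc finger gene, measured 7.74, 7.76 and 7.70 against 8.19, 8.25 and 8.11, a difference of 0.45 (SE 0.08, adjusted p 0.643). Cnn2, an actin-binding calponin, measured 10.55, 10.35 and 10.05 against 10.94, 10.96 and 10.95, a difference of 0.63 (SE 0.14). Against the same MIG arrays, CALM-AF10 and the minimal fusion gave 0.49 and 0.56 for Zscan25 (adjusted p 0.0484 in limma for the minimal fusion). They gave 0.23 and 0.04 for Kcnma1, and 0.24 and 0 for Cnn2.

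In several of the high genes ΔOM-LZ replicate 1 was the highest array. Ets1, a transcription factor of lymphoid and other cells, measured 6.84, 7.05 and 6.76 with MIG and 8.26, 7.61 and 7.36 with ΔOM-LZ, a difference of 0.86 (SE 0.19). Cyp4f18, which breaks down leukotriene B4 in neutrophils, measured 7.27, 8.06 and 7.08 against 9.17, 8.14 and 8.11, a difference of 1.0 (SE 0.36). Cxcr2, the chemokine receptor of mature neutrophils, measured 9.13, 8.76 and 8.91 against 10.51, 9.31 and 9.25, a difference of 0.76 (SE 0.33). Without ΔOM-LZ replicate 1 these differences were 0.60, 0.65 and 0.35. Atp1b1, a sodium pump subunit, differed by 0.75 (SE 0.30) with its highest value, 8.10, on the same array. Against the same MIG arrays, CALM-AF10 and the minimal fusion gave -0.01 and 0.03 for Ets1. They gave -0.47 and -0.53 for Cyp4f18, and -0.52 and -1.02 for Cxcr2.

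Small non-coding RNAs were frequent among the largest higher values. Vaultrc5, a vault RNA, differed by 1.10 (SE 0.51), and Rprl1 and Rprl2, related to the RNA of ribonuclease P, by 0.84 (SE 0.23) and 0.79 (SE 0.31). Snord53, Snord52 and Snord42a, small nucleolar RNAs that guide methylation of ribosomal RNA, differed by 0.84 (SE 0.19), 0.75 (SE 0.19) and 0.75 (SE 0.28). Snord53 measured 10.34, 10.40 and 10.32 with MIG and 10.89, 11.66 and 11.03 with ΔOM-LZ, with ΔOM-LZ replicate 2 highest.

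The whole class was then described, a choice made after these values were seen. Of 58 probe sets whose gene is annotated as a small nucleolar RNA, 53 stood higher and 5 lower, the median was 0.36, 19 had an unadjusted p under 0.05, all higher (background 1.59%), and 18 did not overlap, all higher (background 3.57%). Some of these genes, Snord118 and Snora30 among them, have 2 probe sets with identical values, so the 58 are not independent. The class score was -0.29, -0.41 and -0.31 with MIG and -0.04, 0.20 and -0.14 with ΔOM-LZ, so the groups did not overlap. It was 0.09 to 0.23 with CALM-AF10 and 0 to 0.27 with the minimal fusion, against the same MIG arrays. All 8 small nuclear RNA probe sets stood higher (median 0.301), while 299 microRNA probe sets had a median of 0.04 and 20334 protein-coding ones a median of 0.006.

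**Figure D4:**
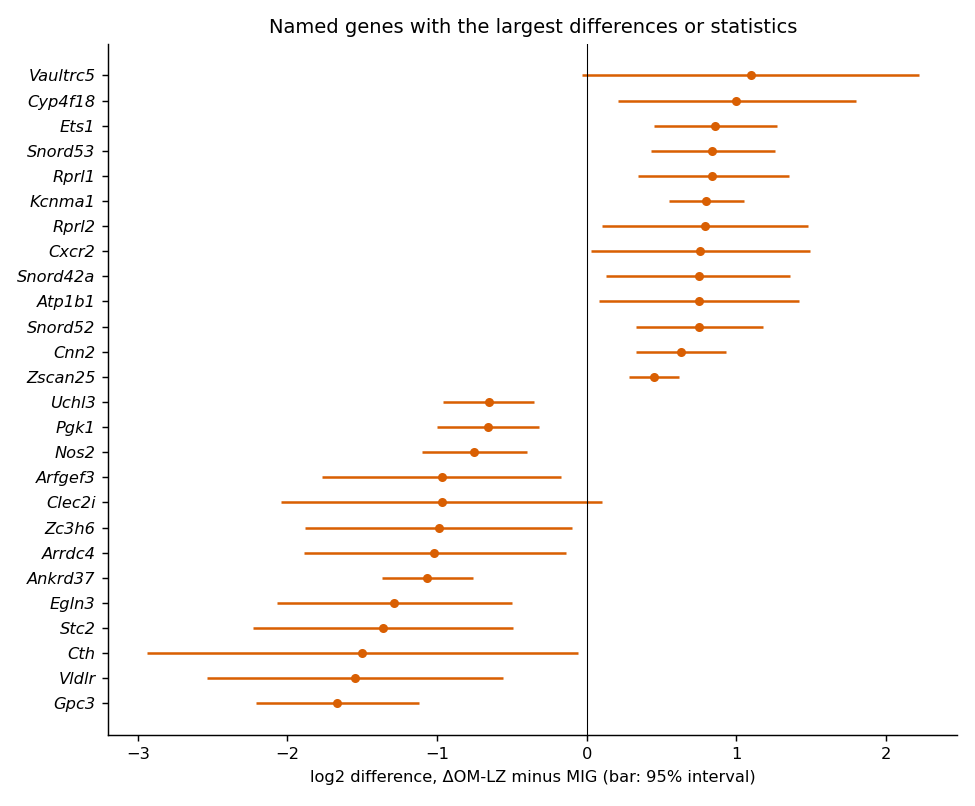
Log2 difference of CALM-AF10 ΔOM-LZ minus MIG with its 95% interval (bars) for the genes with the 10 largest differences and the 5 most extreme statistics in each direction. Intervals exclude 0 for most of them, yet no adjusted p was under 0.234. The genes were chosen by these same values, so intervals away from 0 could be foreseen.

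The sorted cells held several blood lineages, and single arrays differed more than the groups. Mature neutrophil genes stood higher with ΔOM-LZ for 20 of 22 measured members, with a median of 0.302. Of the 22, 1 did not overlap, which is near the background of 3.57%. An unadjusted p under 0.05 was held by 2, both higher (background 1.59%). Ly6g, the neutrophil surface antigen, measured 9.19, 10.80 and 9.31 with MIG and 12.07, 10.73 and 10.56 with ΔOM-LZ, and overlapped through MIG replicate 2. Its difference was 1.35 (SE 0.49, unadjusted p 0.0183, adjusted p 0.999 in limma). Ltf, the secondary granule protein lactoferrin, measured 8.81, 9.38 and 7.12 against 8.04, 10.05 and 10.23, a difference of 1.0 (SE 0.74).

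The score of the mature neutrophil list was 0.04, 0.68 and -0.56 with MIG and -0.06, 0.63 and 0.81 with ΔOM-LZ, and MIG replicate 3 was lowest. Without MIG replicate 3 the median was 0.10, with 17 of 22 members higher and none at an unadjusted p under 0.05, and without ΔOM-LZ replicate 3 it was 0.10, with 16 higher. Without MIG replicate 2 it was 0.67, with 21 higher and 5 at an unadjusted p under 0.05. Genes of the primary granules, made earlier in neutrophil development, had a median of 0.107 with 8 of 12 higher and none at an unadjusted p under 0.05, which turned to -0.15 without MIG replicate 3 and -0.11 without ΔOM-LZ replicate 2 and was 0.39 without ΔOM-LZ replicate 1. Elane, neutrophil elastase, measured 13.01, 12.40 and 12.36 with MIG and 9.94, 13.20 and 12.85 with ΔOM-LZ, so ΔOM-LZ replicate 1 stood far below the other 5. Mpo, myeloperoxidase, measured 13.22, 12.98 and 12.78 against 12.10, 13.37 and 13.30, with the same array lowest and a difference of -0.07 (SE 0.33).

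Monocyte and macrophage genes stood higher for 15 of 20 measured, with a median of 0.342 and none at an unadjusted p under 0.05. Their score was -0.11, 1.31 and -0.56 with MIG and 1.51, -0.05 and 0.17 with ΔOM-LZ, so MIG replicate 2 and ΔOM-LZ replicate 1 stood high. The median turned to -0.09 without ΔOM-LZ replicate 1 and to -0.08 without MIG replicate 3, and was 0.92 without MIG replicate 2. Csf1r, the receptor of macrophage growth factor, measured 9.48, 10.80 and 8.25 against 10.38, 9.09 and 10.08, a difference of 0.34 (SE 0.58).

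Mast cell and basophil genes had a median of 0.009, with 9 of 16 higher, and this split rested on single arrays. All 16 stood higher without MIG replicate 3 (median 0.42), and 2 did without ΔOM-LZ replicate 1 (median -0.37). The median was -0.29 without MIG replicate 1 and -0.10 without MIG replicate 2, with 4 higher in each case. Cma1, a mast cell chymase, measured 6.16, 6.69 and 10.23 with MIG and 8.19, 6.18 and 6.12 with ΔOM-LZ, so MIG replicate 3 and ΔOM-LZ replicate 1 stood high. The list score of these arrays was 1.66 and 1.30, and the other 4 arrays lay between -0.39 and 0.04. Prss34, the basophil protease, measured 8.90, 9.44 and 10.44 against 11.37, 10.70 and 10.24, with overlap and a difference of 1.18 (SE 0.44, unadjusted p 0.0209, adjusted p 0.999 in limma).

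Megakaryocyte and platelet genes stood lower for 14 of 15 measured, with a median of -0.29 and none at an unadjusted p under 0.05. The median was -0.09 without ΔOM-LZ replicate 3 (9 lower), -0.10 without MIG replicate 3 (10 lower) and -0.11 without MIG replicate 2 (12 lower). It was -0.54 with 4 members at an unadjusted p under 0.05 without MIG replicate 1, and -0.63 with 2 such members without ΔOM-LZ replicate 1. Gp9, a platelet glycoprotein, measured 8.75, 9.93 and 10.02 with MIG and 9.10, 8.94 and 8.56 with ΔOM-LZ, with overlap through MIG replicate 1 and a difference of -0.70 (SE 0.37). Eosinophil genes stood lower for 6 of 8, with a median of -0.122. Their mean level lay below the array medians of 6.581 to 6.686 on every ΔOM-LZ array (5.95 to 6.28). It also did on MIG replicates 1 and 2 (6.15 and 6.32). Without a detection call, whether most were expressed is not known. An unadjusted p under 0.05 was held by 2, both lower (background 2.37%). The groups did not overlap at 1 member on each side (background 3.57% higher and 4.47% lower). On the higher side this was Alox15, at 0.31 (SE 0.16). Prg2, the major basic protein, measured 6.44, 6.89 and 7.84 against 6.0, 6.30 and 5.92 without overlap, a difference of -0.98 (SE 0.29). Epx, eosinophil peroxidase, differed by -0.81 (SE 0.34), with MIG replicate 3 highest at 7.70.

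Erythroid, B cell, T and NK cell, and MHC class II lists had medians of -0.093, 0.086, 0.042 and 0.035. The erythroid median turned to 0.05 without MIG replicate 3 and 0.06 without ΔOM-LZ replicate 3, and that of MHC class II to -0.07 without ΔOM-LZ replicate 1. H2-Aa, an MHC class II chain, measured 5.54, 7.10 and 5.65 with MIG and 9.04, 5.24 and 5.46 with ΔOM-LZ, so ΔOM-LZ replicate 1 was highest and MIG replicate 2 next. Cd3e and Pax5, defining genes of T and B cells, lay between 5.82 and 6.40 on the 6 arrays. Fibroblast genes, which the producer cells could carry over, had a mean log2 level of 6.39 to 6.73 with MIG and 6.48 to 6.53 with ΔOM-LZ and a median difference of -0.039. Col1a1 and Col1a2, fibrillar collagens, differed by 0.13 (SE 0.18) and 0.00 (SE 0.13). The 9 endothelial and stromal genes had a median of -0.003.

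**Figure D5:**
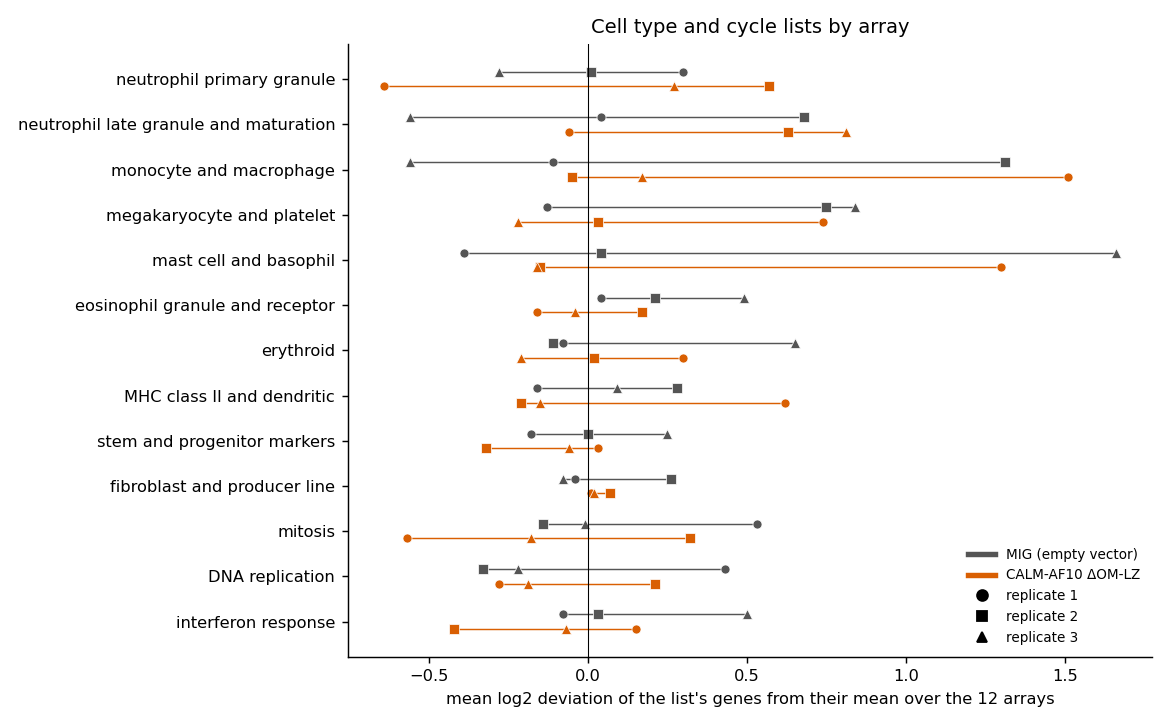
Score of 13 gene lists on each MIG and CALM-AF10 ΔOM-LZ array, as the mean log2 deviation of the list's genes from their mean over the 12 arrays, with a symbol per replicate and a line across each group's range. The ranges of both groups overlap in every list shown, and ΔOM-LZ replicate 1 is high for monocyte genes (1.51) and low for primary granule genes (-0.64).

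Of 11 measured transcription factors of the myeloid lineage, 9 stood higher with a median of 0.134, none at an unadjusted p under 0.05. The median was -0.01 without ΔOM-LZ replicate 2, 0.02 without MIG replicate 3 and 0.30 without ΔOM-LZ replicate 1. Cebpa, needed to form granulocyte progenitors, differed by 0.13 (SE 0.11), and Spi1, which encodes PU.1, by 0.26 (SE 0.19). Among 14 cytokine receptors and feedback genes the median was 0.113, turning to -0.17 without ΔOM-LZ replicate 1 and -0.08 without MIG replicate 1. Csf3r, the receptor of granulocyte growth factor, differed by 0.27 (SE 0.26).

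Mitosis genes were lower for 15 of 17 with a median of -0.302. Of these, 1 had an unadjusted p under 0.05 (background 2.37%) and did not overlap (background 4.47%). It was Kif11, a spindle motor, at 11.43, 11.04 and 11.36 with MIG and 10.27, 10.94 and 10.76 with ΔOM-LZ, a difference of -0.62 (SE 0.23, adjusted p 0.999 in limma). The list score was 0.53, -0.14 and -0.01 with MIG and -0.57, 0.32 and -0.18 with ΔOM-LZ. The median was -0.10 with 12 lower without MIG replicate 1, -0.13 with 11 lower without ΔOM-LZ replicate 1, and -0.50 with 17 lower without ΔOM-LZ replicate 2. Mitosis medians against the same MIG arrays were -0.276 for CALM-AF10 and 0.065 for the minimal fusion. Mki67, the marker of cycling cells, differed by -0.32 (SE 0.19). DNA replication genes had a median of -0.047 with 7 of 19 higher, which turned to 0.20 with 15 higher without MIG replicate 1 and was -0.23 with 4 higher without MIG replicate 2 and -0.21 with 2 higher without ΔOM-LZ replicate 2. Mcm5, of the replicative helicase, differed by 0.00 (SE 0.26).

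Interferon response genes stood lower for 15 of 18 with a median of -0.269, none at an unadjusted p under 0.05. The median was -0.10 without ΔOM-LZ replicate 2 and -0.12 with 10 lower without MIG replicate 3. Their score was -0.08, 0.03 and 0.50 with MIG and 0.15, -0.42 and -0.07 with ΔOM-LZ, MIG replicate 3 being highest and ΔOM-LZ replicate 2 lowest. Targets of p53 had a median of 0.038, which ran from -0.13 without MIG replicate 1 to 0.21 without ΔOM-LZ replicate 2. Plk3, a stress kinase, stood higher by 0.47 (SE 0.16), the 1 member of 16 measured without overlap (background 3.57% on the higher side). Immediate early genes had a median of 0.242 with 10 of 14 higher, but of 0 without MIG replicate 1 and 0.05 without ΔOM-LZ replicate 1, with 7 higher in each case, and of 0.41 without MIG replicate 3. Among them Fos differed by 0.37 (SE 0.63).

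Inflammatory cytokine genes had a median of 0.03, with differences in both directions. It was 0.63 with 3 higher at an unadjusted p under 0.05 without MIG replicate 2, 0.42 without ΔOM-LZ replicate 2, and -0.19 without MIG replicate 1. Ccl3, a chemokine, measured 12.18, 12.64 and 12.17 with MIG and 13.12, 12.99 and 12.83 with ΔOM-LZ, a difference of 0.65 (SE 0.28) without overlap, while Nos2 was low as given above. Of 15 measured, 1 did not overlap on the higher side and 1 on the lower (background 3.57% and 4.47%). Clathrin endocytosis genes, the normal setting of CALM, had a median of 0.014 with 11 of 21 higher. Epn1, an endocytic adaptor, stood higher without overlap by 0.23 (SE 0.10), and Cltc, the clathrin heavy chain, differed by -0.24 (SE 0.15). In this list the groups did not overlap at 1 member on the higher side and 1 on the lower (background 3.57% and 4.47%). The 4 measured sex-linked genes had the same pattern on all arrays, with Xist at 4.60 to 4.82 and the Y-linked Eif2s3y at 9.53 to 10.27.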

How the data were processed

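The authors deposited a log2 intensity for each probe set on each array. The submitters' processing notes name Affymetrix Expression Console, and its version, summarization and normalization were not given in the sources used here. That the scale is log2 follows from the range of the values. They ran from 2.883 to 14.272, with array medians of 6.581 to 6.686, and were used as deposited.

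GEO's probe annotation gave 21789 probe sets 1 gene symbol, 1621 several and 12146 none. Of those with 1 symbol, 21698 matched a RefSeq gene by gene ID (GRCm38.p6). The 23410 probe sets with a symbol entered a linear model (lmFit, then eBayes, of limma 3.58.1 under R 4.3.3) with 1 mean per construct over all 12 arrays and 8 residual degrees of freedom. P values were two-sided, adjusted by Benjamini-Hochberg and called under 0.05, and intervals are 95% intervals of the fit. With 3 arrays per group, their number limits the precision. The procedure was tested on simulated data in which probe sets varied independently, so deviations shared by the genes of an array were not covered.

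Named genes were the 10 highest and 10 lowest differences among non-overlapping probe sets with 1 symbol and at least median level, the 5 highest and 5 lowest statistics, the measured HOXA, HOX cofactor and DOT1L complex members, Picalm and Mllt10. Of each other list the first 3 members and the 2 highest and 2 lowest statistics could be named. Bnip3, Ddit4, Ndrg1, Kdm3a, Slc16a3, Slc2a3 and Aldoa were chosen after their values were seen. A gene with several probe sets is given by its brightest. The members and the 32 lists were chosen with earlier results of these data known, so lists are given by counts and medians without a test.

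Replicate numbers did not pair ΔOM-LZ with MIG, since arrays with the same number did not deviate together (correlations of -0.51, 0.08 and 0.01). Alternatives were quantile normalization, median centring, a trended and robust variance, the 6 arrays alone, a replicate block, bright, all or 1-symbol probe sets only, the mean of a gene's probe sets, and leaving out each of the 12 arrays.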

Additional observations from a re-analysis of the deposited data

Results flagged for a closer look

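A probe set without a gene symbol, 10340429, showed a signal above the control arrays among the 12146 that the comparison leaves out. It measured 8.87, 9.39 and 9.0 log2 units with MIG and 11.04, 11.66 and 11.79 with CALM-AF10 ΔOM-LZ, a difference of 2.41, or 5.30-fold higher than in the control arrays. It was called when all 35556 probe sets were fitted together (adjusted p 0.0284 in limma), and CALM-AF10 and the minimal fusion both differed from MIG by 0.72. The call was lost without ΔOM-LZ replicate 2 (adjusted p 0.209), ΔOM-LZ replicate 3 (0.223), MIG replicate 1 (0.259) or MIG replicate 3 (0.179). What it measures is not known here.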

How the results depend on the processing

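The count of called probe sets stayed at 0 except with all probe sets of the array (2, both without a symbol) and in leaving out 1 array at a time (0 to 4). The 4 calls came without MIG replicate 2 and were Ankrd37, Pdk1, Mgarp and Clybl, all lower. With a replicate block 0 were called, with 436 higher and 673 lower at an unadjusted p under 0.05, and the Hoxa9 difference stayed at -0.05. That unadjusted count, 372 higher, became 232 with the 6 arrays alone, 219 with bright probe sets, 832 with all probe sets and 219 to 647 in leaving out 1 array at a time (219 without MIG replicate 3, 229 without ΔOM-LZ replicate 2, 647 without ΔOM-LZ replicate 1). The 555 lower became 295 to 830 (295 without MIG replicate 3, 304 without ΔOM-LZ replicate 2). The HOXA median ran from -0.053 to 0.092 in leaving out 1 array at a time. In the same exercise 7 named genes with a difference above its SE changed sign: Il6ra (-0.05 to 0.695), Epor (-0.371 to 0.033), Cd36 (-0.722 to 0.039), Car2 (-0.816 to 0.002), H2-Eb1 (-0.101 to 0.616), Ccl22 (-0.717 to 0.036) and Ier2 (-0.532 to 0.027), for 5 of them without MIG replicate 3. The cause was not tested.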

Other observations

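A second probe set without a gene symbol, 10468877, was called in the fit of all 35556 probe sets. It measured 9.05, 8.94 and 9.43 with MIG and 4.83, 4.55 and 5.00 with CALM-AF10 ΔOM-LZ, a difference of -4.35 (adjusted p 6.01e-07 in limma). The values used here carry no detection call, so whether the low arrays lie above background is not known and no fold is given. CALM-AF10 gave 4.43, 4.50 and 4.57 and the minimal fusion 4.59, 4.70 and 4.45, so it was high on the 3 MIG arrays and low on the other 9. The call held when each MIG or ΔOM-LZ array was left out in turn, with differences from -4.45 to -4.21. What it measures is not known here. Of the probe sets without a symbol, 752 (6.19%) had an unadjusted p under 0.05 between ΔOM-LZ and MIG.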
